A study of Mus musculus with 9 samples.

Results

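Tgfbi and 9 genes of the transforming growth factor beta (TGF-beta) pathway were followed across mouse splenic dendritic cells. The set held Tgfbi, Pmepa1, Tgfb1, Tgfbr1, Tgfbr2, Smad3, Smad7, Ski, Skil and Lrrc32, taken by symbol, 10 of the 19938 genes that the array measured under a symbol of their own. Each of the 10 had a single transcript cluster (the group of probes that reads one gene), and all 10 passed the brightness rule that left 10728 genes for testing. The genes were chosen by measured differences between genotypes: Tgfbi was the gene most clearly lower in cells without Batf and Batf3, Pmepa1 was also lower, and the rest were taken around them as parts of the pathway. The question asked here is whether its low level went with differences in other genes of the pathway. Differences between genotypes are therefore given for the 10 genes as values, with no test. The effect of activation and the comparison with the other dendritic cell class were not used in the choice of genes, and those were tested. The tests within a single genotype and between cell classes share arrays with the genotype differences. For Tgfbi and Pmepa1 these tests are therefore not independent of the choice.

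The cells came from spleens of 129SvEv/Tac mice and had been purified by sorting. The 5 groups were activated conventional type 2 dendritic cells (cDC2) lacking both Batf and Batf3 (Batf-/- Batf3-/-, here DKO), activated wild-type (WT) cDC2, resting DKO cDC2, resting WT type 1 cells (cDC1) and resting WT cDC2. Each cDC2 group had 2 arrays and cDC1 had 1. Purified cells were activated by a 1 h exposure to 100 ng/ml IFN-gamma, and then 1 µg/ml of LPS from E. coli during 3 h more. It is not stated if the resting cells spent those hours in medium too. Separate animals are not named for the 2 arrays of any group, so p-values measure the spread between arrays, which may be technical. Both genes are missing in all cells of the DKO mice, as far as the labels say, and not in dendritic cells alone. The arrays measure RNA from a whole sorted population, and fewer cells of a type and less RNA per cell cannot be told apart.

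TGF-beta is made as a latent complex that has to be released before it can bind its receptors. The released ligand brings the type II receptor Tgfbr2 together with the type I receptor Tgfbr1, which phosphorylates Smad2 and Smad3, and these move with Smad4 to the nucleus and switch target genes on or off. Several targets feed back on the pathway: Smad7 blocks the receptor, Pmepa1 keeps Smad2 and Smad3 from the receptor complex, and Ski and Skil hold SMAD complexes in a repressed state. In mouse spleen and gut, dendritic cells are both a source of active TGF-beta for T cells and responders to it. Batf and Batf3 are AP-1 factors that bind DNA with Jun proteins and with IRF4 or IRF8.

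The deleted genes were checked first. Batf had log2 intensities of 5.40 and 5.44 in resting DKO cDC2 and 5.44 and 5.31 in activated DKO cDC2, against 6.74 and 7.37 in resting WT and 7.26 and 9.07 in activated WT cDC2. Batf3 had 6.43 and 7.17 in resting DKO cDC2 and 6.65 and 6.90 in activated DKO cDC2, against 7.71 and 7.58 in resting WT and 8.56 and 9.92 in activated WT cDC2. Both genes were lower on every DKO array than on every WT array. Array medians lay between 53.4 and 55.6 on the linear scale. The cDC1 markers Xcr1 (9.33 in cDC1, 4.42 to 4.73 in cDC2) and Clec9a (8.67 in cDC1, 3.64 to 4.32 in cDC2) were high on the cDC1 array alone. The cDC2 markers Irf4 (5.13 in cDC1, 9.37 to 11.02 in cDC2) and Sirpa (7.05 in cDC1, 9.05 to 10.30 in cDC2) ran the other way. In these genes the array labelled cDC1 and the 8 labelled cDC2 differed as their labels say. Of 12 listed cDC2 markers, 7 passed the brightness rule, Itgam and Clec4a4 not among them. The 10 listed cDC1 markers summed to a linear intensity of 8687 in cDC1, 2132 to 2873 in resting cDC2 and 5958 to 7869 in activated cDC2.

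Tgfbi encodes a secreted matrix protein with FAS1 domains that binds integrins and collagens, and it is named for its induction by TGF-beta. The gene lies on chromosome 13 of the GRCm38.p6 build. Promoter windows, 250 bases before to 50 bases after a transcription start, were in hand for 6 of the 10 genes, in 7 windows, all from RefSeq. The Tgfbi window (chr13:56609336-56609635, plus strand) is shown because Tgfbi was the gene lowest in DKO cells. The windows of the receptors Tgfbr1 (chr4:47352972-47353271, plus strand) and Tgfbr2 (chr9:116175314-116175613, minus strand) stand beside it because both genes were also lower on every DKO array than on the WT arrays of the same state. Each is written 5′ to 3′ along its gene, and capitals mark the SMAD-binding letters CAGAC, which appear as GTCTG where they lie on the opposite strand.
Tgfbi promoter: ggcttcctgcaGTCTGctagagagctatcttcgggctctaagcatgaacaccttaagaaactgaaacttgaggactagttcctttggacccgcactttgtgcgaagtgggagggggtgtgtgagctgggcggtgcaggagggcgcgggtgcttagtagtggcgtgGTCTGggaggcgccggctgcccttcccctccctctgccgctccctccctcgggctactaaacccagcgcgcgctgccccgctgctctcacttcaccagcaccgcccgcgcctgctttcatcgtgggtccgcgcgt
Tgfbr1 promoter: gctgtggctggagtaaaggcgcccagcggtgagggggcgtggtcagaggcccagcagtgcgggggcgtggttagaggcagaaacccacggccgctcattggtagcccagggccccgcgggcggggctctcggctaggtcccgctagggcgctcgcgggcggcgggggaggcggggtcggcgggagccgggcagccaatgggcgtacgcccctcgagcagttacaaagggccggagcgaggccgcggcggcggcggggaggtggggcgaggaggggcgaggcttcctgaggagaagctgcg
Tgfbr2 promoter: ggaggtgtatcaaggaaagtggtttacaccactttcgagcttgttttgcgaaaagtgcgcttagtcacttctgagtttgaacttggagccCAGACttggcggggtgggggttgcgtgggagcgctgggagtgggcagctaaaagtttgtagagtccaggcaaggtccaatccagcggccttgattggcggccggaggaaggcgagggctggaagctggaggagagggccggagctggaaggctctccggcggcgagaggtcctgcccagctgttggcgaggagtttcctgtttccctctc

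The AP-1 letters TGANTCA, which Batf and Batf3 bind with Jun proteins, were searched on both strands and were in 0 of the 7 windows, Tgfbi's included. They are in 7.81% of the 32851 mouse promoter windows of the same length. Of the 2 longer AP-1 and IRF composites searched, GAAA directly before TGANTCA (in 0.125% of all windows) and TGANTCA followed after 4 free bases by GAAA (in 0.119%), each of which contains the AP-1 letters, neither was in a window of the 10 genes. The SMAD palindrome GTCTAGAC, in 0.213% of all windows, was in none either. The shorter CAGAC was found 2 times in the Tgfbi window, starting 239 and 85 bases before the transcription start, both on the strand opposite the gene. Tgfbr2 had 1 match, 160 bases before its start, and the second of the Tgfbr1 windows, not shown, had 1 at 203 bases before its start. CAGAC is in 49.6% of all windows, cannot lie within GTCTAGAC, and was not in the windows of Tgfb1, Smad3 or Ski. These are matches of letters within 300 bases and say nothing of whether a factor was bound there or elsewhere.

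Tgfbi was low in DKO cDC2 in both states. Its log2 intensity was 7.70 and 7.63 in resting DKO cDC2, against 9.61 and 9.57 in resting WT cDC2. After activation it was 6.89 and 7.09 in DKO cDC2, against 8.57 and 8.73 in WT cDC2. The genotypes did not overlap in either state, and even the activated WT cells stood above the resting DKO cells. The difference, DKO minus WT, was -1.93 ± 0.11 (SE, n = 2 each) in resting cells, a 3.80-fold lower level, and -1.66 ± 0.11 in activated cells, 3.15-fold lower. In same-numbered arrays it was -1.91 and -1.94 at rest and -1.68 and -1.64 after activation. The cDC1 array, at 9.67, lay next to resting WT cDC2, and the 5 groups ran from cDC1 through resting WT, activated WT and resting DKO to activated DKO cDC2 with no overlap between neighbours.

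**Figure D1:**
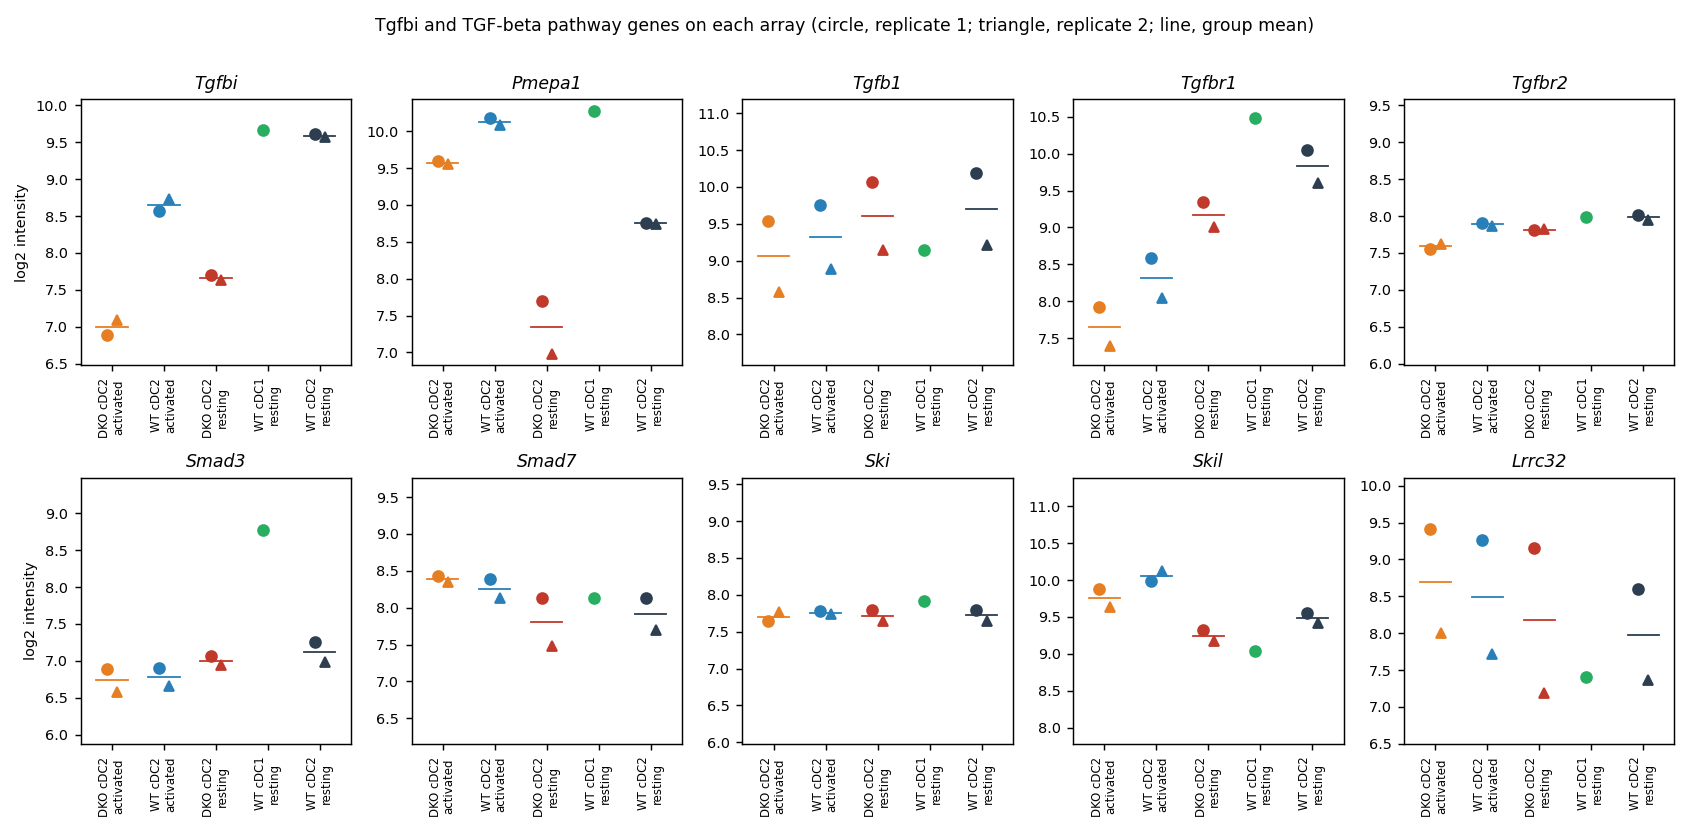
Log2 intensity of each of the 10 genes (vertical axis, every panel spanning the same range of log2 units) on each of the 9 arrays, by group; circles are replicate 1, triangles replicate 2, and lines the group means. Tgfbi is lower in DKO than in WT cDC2 in both states (means 6.99 and 8.65 after activation, 7.66 and 9.59 at rest), while Tgfb1 and Lrrc32 differ mainly between replicate 1 and replicate 2.

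Pmepa1, a membrane protein induced by TGF-beta that restrains SMAD signalling, was also lower in DKO cDC2, with a smaller gap after activation. It had 7.70 and 6.98 in resting DKO cDC2, against 8.75 and 8.74 in resting WT cDC2, and 9.59 and 9.55 in activated DKO cDC2, against 10.18 and 10.08 in activated WT cDC2. No DKO array reached a WT array of the same state. The difference was -1.41 ± 0.22 at rest, 2.65-fold lower in DKO, and -0.55 ± 0.22 after activation, 1.47-fold lower. At rest the same-numbered arrays gave -1.05 and -1.76, so the resting value depended on which array was read, and it was the second DKO array, at 6.98, that stood lowest.

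Of the receptors, Tgfbr1, the kinase that phosphorylates Smad2 and Smad3, was lower in DKO cDC2. Its values were 9.35 and 9.0 in resting DKO cDC2, against 10.05 and 9.60 in resting WT cDC2, and 7.92 and 7.39 in activated DKO cDC2, against 8.59 and 8.05 in activated WT cDC2. The genotypes did not overlap in either state. Because replicate 1 was above replicate 2 in all 4 groups, the fitted error was wide (-0.65 ± 0.28 at rest, -0.66 ± 0.28 after activation), but the same-numbered arrays gave close values: -0.71 and -0.60 at rest, -0.67 and -0.66 after activation. Tgfbr2, the receptor that binds the ligand, differed little. It had 7.81 and 7.82 in resting DKO cDC2, against 8.01 and 7.95 in resting WT cDC2, and 7.55 and 7.62 in activated DKO cDC2, against 7.91 and 7.87 in activated WT cDC2. The arrays again did not overlap, at differences of -0.17 ± 0.09 at rest and -0.30 ± 0.09 after activation.

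Skil, a SMAD corepressor that TGF-beta itself induces, was the fifth gene without overlap. Its values were 9.32 and 9.17 in resting DKO cDC2, against 9.55 and 9.42 in resting WT cDC2, and 9.88 and 9.64 in activated DKO cDC2, against 9.99 and 10.12 in activated WT cDC2, for differences of -0.24 ± 0.12 at rest and -0.29 ± 0.12 after activation. Its relative Ski was level across the cDC2 arrays, from 7.64 to 7.79 in DKO and from 7.65 to 7.80 in WT cDC2, with differences of -0.01 ± 0.11 at rest and -0.05 ± 0.11 after activation. Smad7, the inhibitory SMAD, had 8.13 and 7.48 in resting DKO cDC2, against 8.13 and 7.70 in resting WT cDC2, and 8.43 and 8.35 in activated DKO cDC2, against 8.39 and 8.13 in activated WT cDC2. Its genotypes overlapped in both states, with differences of -0.11 ± 0.24 at rest and 0.13 ± 0.24 after activation. Smad3, the signal-carrying SMAD, overlapped as well: 7.06 and 6.95 in resting DKO cDC2, against 7.25 and 6.99 in resting WT cDC2, and 6.89 and 6.58 in activated DKO cDC2, against 6.90 and 6.66 in activated WT cDC2, with differences of -0.12 ± 0.16 and -0.04 ± 0.16.

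In the ligand and its anchor, arrays of different replicate number stood further apart than the genotypes. Tgfb1, which encodes TGF-beta1, had 10.07 and 9.14 in resting DKO cDC2, against 10.19 and 9.21 in resting WT cDC2, and 9.54 and 8.58 in activated DKO cDC2, against 9.76 and 8.88 in activated WT cDC2. Genotype differences were -0.10 ± 0.53 at rest and -0.26 ± 0.53 after activation. Between same-numbered arrays, Tgfb1 was lower in DKO cDC2 in all 4 pairs, by -0.12 and -0.07 at rest and by -0.23 and -0.30 after activation, and with the replicate number as a block the error narrowed to ± 0.08 in each state. Lrrc32 (GARP), which holds latent TGF-beta on the cell surface and is best known from regulatory T cells, had 9.16 and 7.19 in resting DKO cDC2, against 8.60 and 7.36 in resting WT cDC2, and 9.41 and 8.0 in activated DKO cDC2, against 9.26 and 7.72 in activated WT cDC2, differences of 0.20 ± 0.88 and 0.21 ± 0.88. Its same-numbered pairs gave 0.56 and -0.17 at rest and 0.15 and 0.28 after activation. In both genes replicate 1 was the higher array in all 4 groups, by 0.89 to 0.97 log2 units for Tgfb1 and by 1.24 to 1.97 for Lrrc32. The mean gap was 0.94 for Tgfb1 and 1.54 for Lrrc32, set against a median size of 0.14 and a 95th percentile of 0.57 over all genes tested. A larger mean gap was seen in 107 genes (0.997%) for Tgfb1 and in 16 genes (0.149%) for Lrrc32. Tgfbr1 shared the direction at 0.34 to 0.53, and Tgfbi did not, at 0.07 and 0.04 at rest and -0.20 and -0.16 after activation in DKO and WT cDC2.

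**Figure D2:**
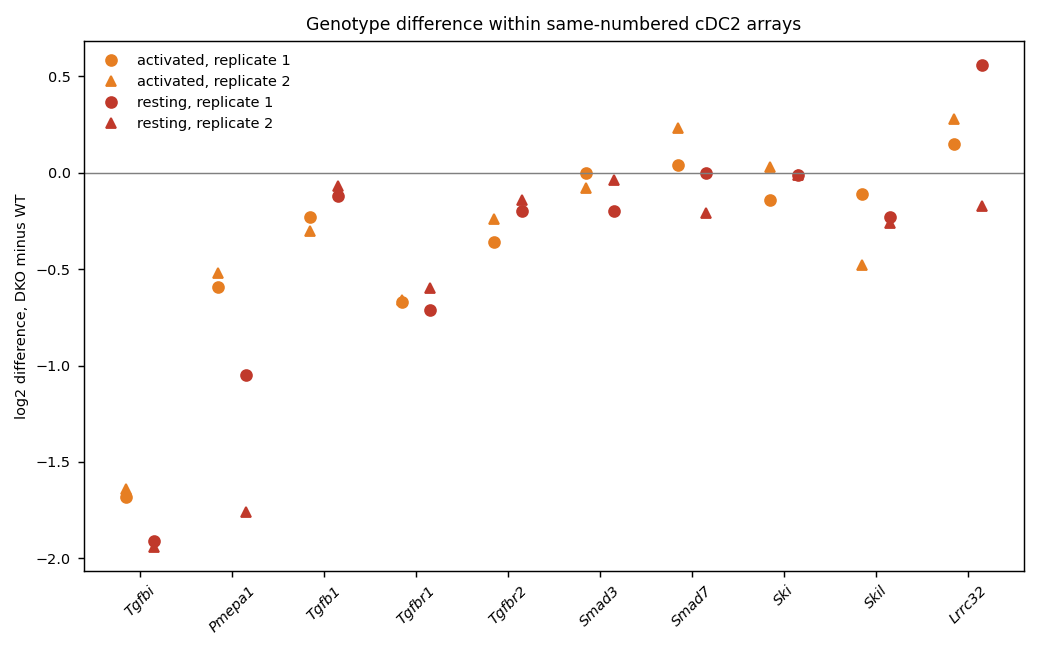
Log2 difference, DKO minus WT (vertical axis), between cDC2 arrays of the same replicate number for each of the 10 genes; orange is activated, red resting, circles replicate 1 and triangles replicate 2. Tgfbi lies between -1.94 and -1.64 in all 4 pairs, Pmepa1 between -1.76 and -0.52 and Tgfbr1 between -0.71 and -0.60, while Ski lies between -0.14 and 0.03.

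Counted over the set, 5 of the 10 genes (Tgfbi, Pmepa1, Tgfbr1, Tgfbr2 and Skil) were lower on both DKO arrays than on both WT arrays in each state, and 0 were higher on both. Over all genes tested, 13.4% were lower without overlap at rest, 13.5% after activation and 5.07% in both states. The median difference of the 10 genes over both states was -0.21, beside 0.01 over all genes tested. The genes were picked with this contrast known, so these counts describe them and support nothing further. When any 1 of the 4 activated arrays was left out, the difference of Tgfbi after activation stayed between -1.76 and -1.56. Leaving out 1 resting array turned the sign for Tgfb1 (-0.58 to 0.39), Lrrc32 (-0.79 to 1.18) and Smad7 (-0.43 to 0.21). Smad3 (-0.25 to 0.01) and Ski (-0.08 to 0.06) turned there too. After activation Tgfb1 (-0.74 to 0.22), Lrrc32 (-0.56 to 0.98) and Smad3 (-0.20 to 0.12) turned. So did Ski (-0.12 to 0.01) and Smad7 (-0.00 to 0.27). The 5 genes without overlap cannot turn in this way.

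Markers of other cells were read beside these values, and their part in the differences was not tested. Macrophage markers (10 of 15 listed above the brightness rule) summed to linear intensities of 2901 to 3410 in resting DKO cDC2, against 3550 to 3904 in resting WT cDC2, and 2534 to 3030 in activated DKO cDC2, against 3093 to 3508 in activated WT cDC2. Monocyte markers (9 of 16 above the rule) summed to 1792 to 2116 in resting DKO cDC2, against 2006 to 3004 in resting WT cDC2, and 1818 to 1975 in activated DKO cDC2, against 2286 to 2635 in activated WT cDC2. T cell markers (5 of 12 above the rule) summed to 2225 to 2754 in resting DKO cDC2, against 3045 to 3300 in resting WT cDC2, and 1235 to 1579 in activated DKO cDC2, against 1756 to 2046 in activated WT cDC2. The macrophage and T cell sums were lower in DKO cDC2 without overlap in both states, as Tgfbi was, and the monocyte sum after activation. Of the 9 monocyte markers above the rule, 8 were below 0 in DKO minus WT in each state, with medians of -0.62 at rest and -0.35 after activation, beside 0.01 over all genes. Fcgr4, an Fc receptor of non-classical monocytes, had 5.0 to 5.56 in resting DKO cDC2, against 5.82 to 6.45 in resting WT cDC2, and 7.17 to 7.26 in activated DKO cDC2, against 8.51 to 8.80 in activated WT cDC2. Lyz2, the lysozyme of myeloid cells, had 7.51 to 7.53 in resting DKO cDC2, against 7.77 to 8.62 in resting WT cDC2, and 7.09 to 7.34 in activated DKO cDC2, against 7.62 to 8.36 in activated WT cDC2. Neither gene overlapped between genotypes in either state. Plasmacytoid dendritic cell markers (6 of 9 above the rule) summed to 1581 to 3570 in resting DKO cDC2, against 2283 to 6682 in resting WT cDC2, and 4148 to 6193 in activated DKO cDC2, against 4219 to 7421 in activated WT cDC2. These sums overlapped, and the median difference of the 6 was -0.78 at rest, with 5 below 0, and -0.12 after activation, with 4 below 0. Cd4, on the T cell list, is also carried by cDC2 themselves, and the T cell receptor chain Cd3e lay between 6.03 and 6.21 on all 9 arrays. The monocyte gene Cx3cr1 had 6.66 to 7.12 in resting DKO cDC2, against 7.40 to 7.81 in resting WT cDC2. Ace had 5.37 to 5.74 in resting DKO cDC2, against 6.04 to 6.32 in resting WT cDC2. It passed the brightness rule of 5.94 only through resting WT cDC2, and ranged from 5.27 to 5.94 on all other arrays. Its place among the 8 monocyte markers below 0, and in their median at rest, is therefore not independent of that rule. Csf1r overlapped at rest, at 7.40 to 7.88 in DKO and 7.64 to 7.78 in WT cDC2. Ccr2 (4.19 to 4.64 on all 9 arrays) and F13a1 (4.40 to 4.55), also on the monocyte list, lay below the brightness rule of 5.94 on every array. The T cell gene Foxp3 (5.35 to 5.68) and the platelet gene Pf4 (4.55 to 5.34) also lay below this rule. C1qa, a complement gene of macrophages, lay above it, at 6.25 to 6.29 in resting DKO cDC2, against 6.68 to 7.35 in resting WT cDC2, and at 6.39 to 6.52 in activated DKO cDC2, against 6.97 to 7.07 in activated WT cDC2. Platelet markers (5 of 11 above the rule) were alike between genotypes at rest, at 451 to 457 in resting DKO cDC2 and 434 to 467 in resting WT cDC2. On the cDC1 array they summed to 585, with the platelet gene Ppbp at 7.11, against 4.43 to 5.63 in cDC2. The monocyte sum there was 3390, the macrophage sum 3048 and the T cell sum 668. The part of other cells in the cDC1 comparison was not tested.

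Activation moved 4 of the 10 genes in the mean of both genotypes, Pmepa1 and Skil upward and Tgfbi and Tgfbr1 downward, where 10.6% of all genes rose and 21.7% fell, 32.4% in all, so 4 of 10 lay near the background. Pmepa1 rose by 1.80 ± 0.16 log2 units, 3.49-fold (adjusted p = 0.00114). It rose by 2.23 ± 0.22 in DKO cDC2 (adjusted p = 0.00429) and by 1.38 ± 0.22 in WT cDC2 (adjusted p = 0.0199). Skil rose by 0.54 ± 0.09, 1.45-fold (adjusted p = 0.00695). Tgfbi fell by 0.80 ± 0.08 on the log2 scale, 1.75-fold (adjusted p = 0.0015), and it fell within each genotype, by 0.67 ± 0.11 in DKO cDC2 (adjusted p = 0.0147) and by 0.94 ± 0.11 in WT cDC2 (adjusted p = 0.00944). Tgfbr1 fell by 1.51 ± 0.20, 2.86-fold (adjusted p = 0.00339), with -1.52 ± 0.28 in DKO cDC2 and -1.51 ± 0.28 in WT cDC2 (adjusted p = 0.0195 and 0.0277). The same 4 genes passed in DKO cDC2 alone, where 13.7% of all genes did, and in WT cDC2 alone, where 10.5% did. All 4 stayed past the threshold in the mean of both genotypes when any 1 of the 8 cDC2 arrays was left out. Within a single genotype, leaving out 1 array left 1 or 2 of the 4 in DKO cDC2 and 0 to 2 in WT cDC2, with 0 in WT without resting replicate 1 or activated replicate 2.

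**Figure D3:**
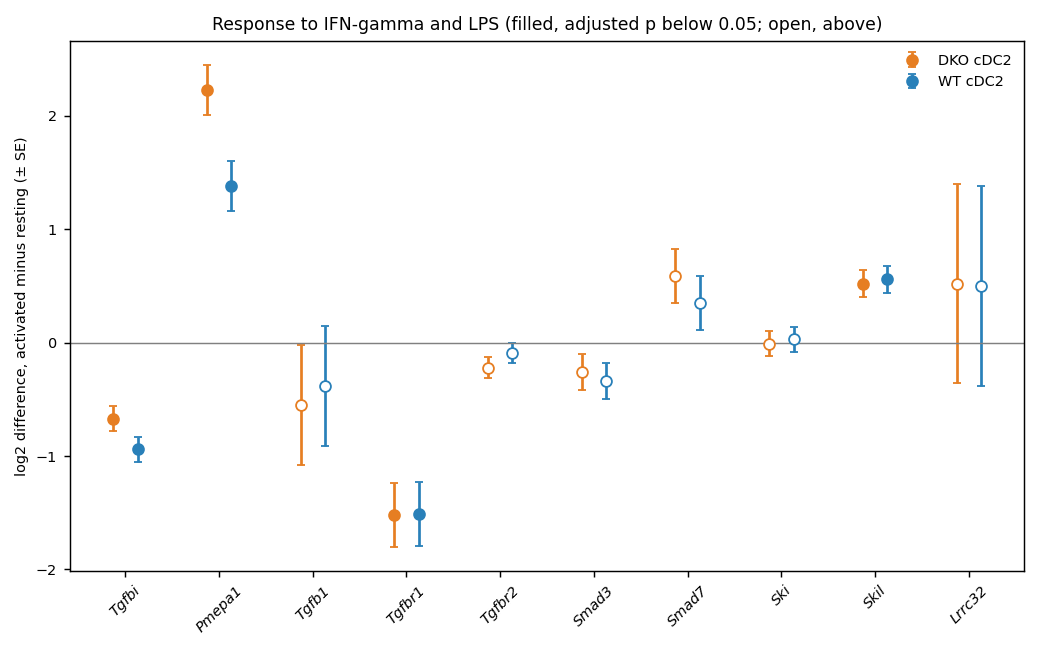
Log2 difference, activated minus resting (vertical axis), for the 10 genes in DKO cDC2 (orange) and WT cDC2 (blue); bars are the standard error of the fit of all 9 arrays (2 arrays a group), and filled points passed an adjusted p of 0.05. Pmepa1 and Skil lie above 0 and Tgfbi and Tgfbr1 below it in both genotypes, and the wide bars of Tgfb1 and Lrrc32 follow the gap between replicate numbers.

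The other 6 genes did not pass in the fit without a block. For 4 of them the block on replicate number changed the call in the mean of both genotypes. The ligand Tgfb1 was lower after activation in all 4 same-numbered pairs, by -0.53 and -0.56 in DKO cDC2 and -0.42 and -0.34 in WT cDC2, a mean of -0.46 ± 0.38 (adjusted p = 0.384) without the block and -0.46 ± 0.05 (adjusted p = 0.000812) with it. Smad3 was at -0.30 ± 0.11 (adjusted p = 0.082, and 0.006 with the block), lower in all 4 pairs, by -0.16 and -0.37 in DKO cDC2 and -0.36 and -0.33 in WT cDC2. Smad7 was at 0.47 ± 0.17 (adjusted p = 0.0841, and 0.00724 with the block), higher in all 4 pairs. Lrrc32 was at 0.51 ± 0.62 (adjusted p = 0.562, and 0.0105 with the block), also higher in all 4 pairs. With the block, 8 of the 10 genes passed, beside 52.7% of all genes, 7 in DKO cDC2 alone (38% of all genes) and 6 in WT cDC2 alone (35.3%). Over 8 alternatives that kept all cDC2 arrays, the adjusted p of these genes ran from the block's value up to 0.488 for Tgfb1, 0.283 for Smad3, 0.132 for Smad7 and 0.654 for Lrrc32. Tgfbr2 (-0.16 ± 0.06, adjusted p = 0.0942) and Ski (0.01 ± 0.07, adjusted p = 0.918) passed in neither fit.

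Whether activation acted differently in the 2 genotypes was tested as the response in DKO cDC2 minus the response in WT cDC2. None of the 10 genes passed, nor did any of the 10728 genes by limma, with the block or without it; 121 genes (1.13%) were below an unadjusted p of 0.05 without the block and 368 (3.43%) with it. The largest of the 10 was Pmepa1, at 0.85 ± 0.31. Tgfbi was at 0.27 ± 0.15 and Tgfbr1 at -0.01 ± 0.39. This contrast equals the genotype difference after activation minus that at rest. Tgfbi and Pmepa1 were chosen by genotype differences, so their values here are a description. A loss of Tgfbi that differed between resting and activated cells was not detected with 2 arrays a group. How large a difference could have been detected was not tested.

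In resting WT cells, cDC1 and cDC2 differed in 2 of the 10 genes, Smad3 and Pmepa1, both higher in cDC1, where 7.08% of all genes were higher and 6.56% lower, 13.6% in all. Smad3 was at 8.77 in cDC1, against 7.25 and 6.99 in cDC2, a difference of 1.65 ± 0.19 or 3.14-fold (adjusted p = 0.005). Pmepa1 was at 10.28 in cDC1, against 8.75 and 8.74 in cDC2, a difference of 1.53 ± 0.27 or 2.89-fold (adjusted p = 0.0165). With a single cDC1 array the test assumes that it varies as the cDC2 groups do. Without either 1 of the resting WT cDC2 arrays Pmepa1 no longer passed (adjusted p = 0.0583 to 0.0587), at an equal difference of 1.53. Tgfbr1, at 10.48 in cDC1 against 10.05 and 9.60 in cDC2, did not pass (0.65 ± 0.34, adjusted p = 0.257), nor did Skil, at 9.04 in cDC1 against 9.55 and 9.42 in cDC2 (-0.45 ± 0.15, adjusted p = 0.105). The differences of Tgfbi (0.08 ± 0.13) and Tgfbr2 (0.00 ± 0.10) were the smallest of the set. Ski had 7.92 in cDC1, against 7.80 and 7.65 in cDC2, Smad7 had 8.13 in cDC1, against 8.13 and 7.70 in cDC2, Tgfb1 had 9.14 in cDC1, against 10.19 and 9.21 in cDC2, and Lrrc32 had 7.40 in cDC1, against 8.60 and 7.36 in cDC2.

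Beyond the 10 genes, 86 other genes of the pathway were listed by role, of which 82 were on the array and 61 passed the brightness rule. In the genotype comparisons 0 of the 61 passed by limma at rest, after activation or in the mean of both states, where 0.0186% of all genes passed each time. There were 9, 5 and 8 below an unadjusted p of 0.05 in the 3 comparisons, as were 6.59%, 5.95% and 10.8% of all genes, and their median differences were -0.05, -0.00 and -0.02, beside 0.01 over all genes. With the block, 0 passed at rest (0.736% of all genes) or after activation (0.569%) and 7 passed in the mean of both states, 2 higher and 5 lower in DKO cDC2, which is 11.5% of the 61 beside 5.58% of all genes. Among ligands and their activators, Itgb8, the integrin chain through which mouse dendritic cells release active TGF-beta, had 9.03 and 9.43 in resting DKO cDC2, against 10.13 and 10.58 in resting WT cDC2. After activation it had 9.31 and 10.47 in DKO cDC2, against 9.85 and 10.79 in WT cDC2, where the genotypes overlapped, for a mean difference of -0.78 ± 0.32 (adjusted p = 0.468, and 0.0299 with the block).

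Among the receptors, the activin receptor Acvr2a was higher in DKO cDC2, with 8.41 and 8.43 in resting DKO, against 7.75 and 7.93 in resting WT cDC2, and 7.75 and 7.65 in activated DKO, against 7.37 and 7.33 in activated WT cDC2. Its mean difference was 0.47 ± 0.07 (adjusted p = 0.109, and 0.0194 with the block). The co-receptor Eng was at -0.33 ± 0.08 (adjusted p = 0.228, and 0.0397 with the block). Eng lay close to the brightness rule of 5.94, at 5.71 to 5.97 in DKO and 6.02 to 6.27 in WT cDC2, so this difference was read between dim values. The corepressor Tgif1 was at -0.33 ± 0.24 (adjusted p = 0.691, and 0.0298 with the block). Of the target genes, Itgae (CD103) was at -0.41 ± 0.08, the cell cycle inhibitor Cdkn2b at 0.44 ± 0.09 and the transcriptional repressor Zeb2 at -0.32 ± 0.09, with adjusted p from 0.132 to 0.275 without the block and from 0.0268 to 0.037 with it. Itgae lay under the brightness rule on every cDC2 array, at 5.12 to 5.9, so its genotype difference was read between dim values. Hipk2, a kinase, and Nrros, a surface anchor of latent TGF-beta in myeloid cells, passed in neither fit (-0.34 ± 0.10 and 0.26 ± 0.12). The relatives of Tgfbi with FAS1 domains, Postn, Stab1 and Stab2, were all under the brightness rule.

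**Figure D4:**
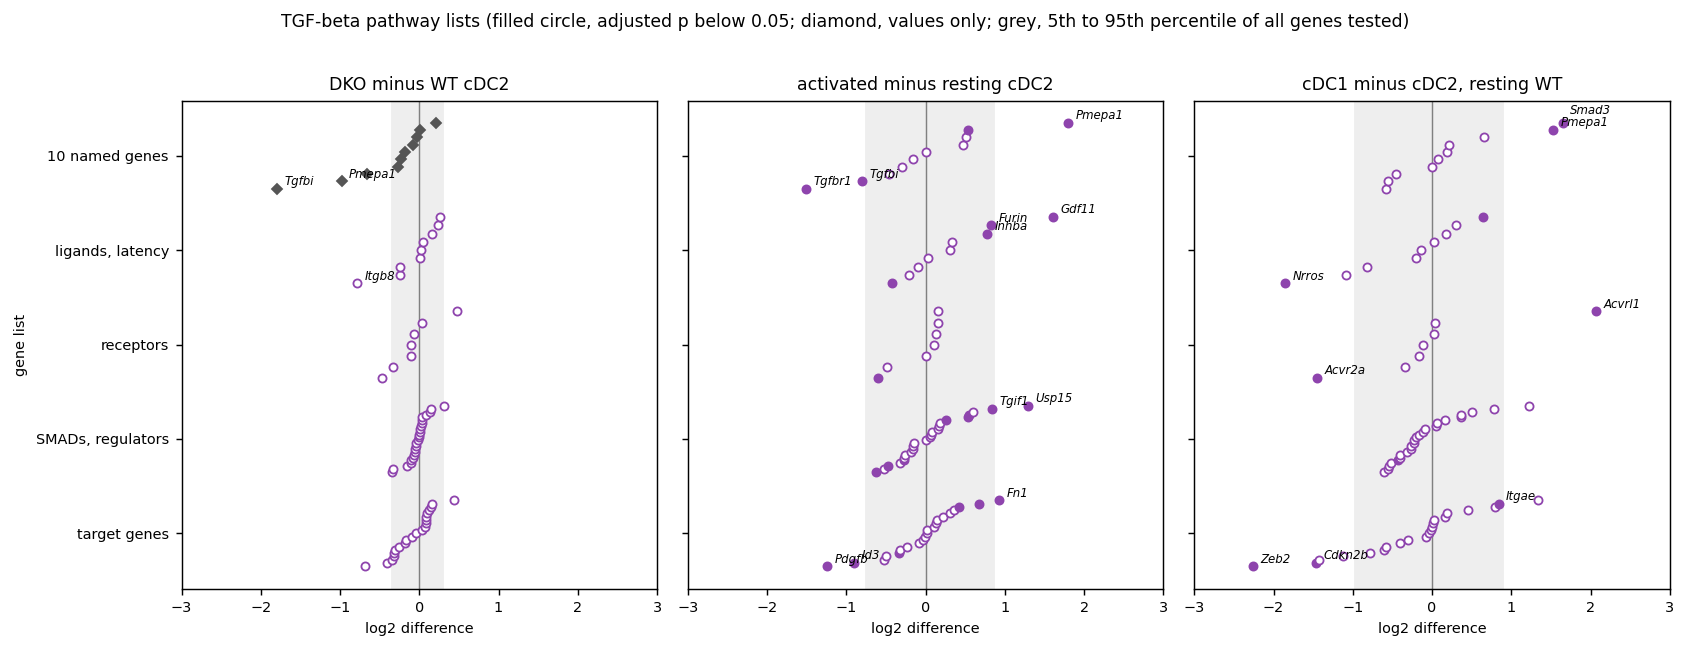
Log2 differences (horizontal axis) of the 10 genes and of the other pathway genes by role, for DKO minus WT (mean of both states), activated minus resting (mean of both genotypes) and cDC1 minus cDC2 at rest; filled circles passed an adjusted p of 0.05, diamonds are values with no test, and grey spans the 5th to 95th percentile of all genes tested. No open or filled circle passes -1 in the genotype panel, and Itgb8 at -0.78 is the lowest, while activation and cell class show genes past 1 in either direction.

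Activation changed 19 of the 61 other pathway genes in the mean of both genotypes, 11 upward and 8 downward, a share of 31.1% beside 32.4% of all genes. Among ligands and their processing, 3 of 9 genes rose and 1 fell. Gdf11, a ligand of the family, rose by 1.61 ± 0.14 (adjusted p = 0.00117), with 8.08 and 7.68 in activated DKO cDC2, against 6.12 and 5.94 in resting DKO cDC2, and 7.68 and 7.50 in activated WT cDC2, against 6.43 and 6.01 in resting WT cDC2. Furin, the protease that cuts pro-TGF-beta, rose by 0.83 ± 0.12 and Inhba, the activin A chain, by 0.78 ± 0.18, while Nrros fell by 0.42 ± 0.12 (adjusted p from 0.00521 to 0.0381). Of 7 receptors, Acvr2a alone passed and fell by 0.60 ± 0.07 (adjusted p = 0.00266). Of 24 SMADs and regulators, 5 rose and 3 fell, with Usp15, a deubiquitinase of the receptor complex, at 1.29 ± 0.10 (adjusted p = 0.000932), Tgif1 at 0.84 ± 0.24, Smad1 at 0.55 ± 0.15 and Tgfbrap1, a receptor-associated protein, at -0.63 ± 0.10. Of 21 target genes, 3 rose and 3 fell. Fibronectin (Fn1) rose by 0.93 ± 0.18 and Runx3 by 0.67 ± 0.19, and Pdgfb fell by 1.24 ± 0.18 and Id3 by 0.90 ± 0.21 (adjusted p from 0.00515 to 0.0369). Tgfbi and Pmepa1, themselves target genes, also moved in opposite directions. Fn1 exceeded the brightness rule of 5.94 in the mean of activated WT cDC2 alone (6.29). Its mean was 5.89 in activated DKO cDC2 and 5.06 to 5.19 in the other groups. It was therefore tested only because of its level after activation, and its place among the genes that rose is not independent of that rule. Inhba had means of 5.94 in resting DKO and 5.58 in resting WT cDC2, so its rise was read from dim values.

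Between cDC1 and cDC2 at rest, 8 of the 61 passed, 3 higher and 5 lower in cDC1, which is 13.1% beside 13.6% of all genes. Acvrl1, a type I receptor, was higher in cDC1 by 2.07 ± 0.27 (9.79 in cDC1, against 7.97 and 7.48 in cDC2, adjusted p = 0.00651). Itgae was higher by 0.84 ± 0.13 and the latency protein Ltbp2 by 0.64 ± 0.13. Both genes exceeded the brightness rule in cDC1 alone, at 6.72 for Itgae and 6.52 for Ltbp2, and lay under it on every cDC2 array. They were therefore tested only because of their level in cDC1. Their place among the 3 higher genes is not independent of that rule. Zeb2 was lower in cDC1, at 7.41 against 9.75 and 9.60 in cDC2 (-2.26 ± 0.15, adjusted p = 0.000929). Nrros (-1.85 ± 0.20), Cdkn2b (-1.46 ± 0.16), Acvr2a (-1.45 ± 0.12) and the ubiquitin ligase Smurf2 (-0.43 ± 0.11) were also lower (adjusted p from 0.00182 to 0.0459). The genes with differences between cell classes included 4 that the block called between genotypes: Acvr2a and Cdkn2b, higher in DKO cDC2 and lower in cDC1, Itgae, lower in DKO cDC2 and higher in cDC1, and Zeb2, lower in both. These comparisons share the resting WT cDC2 arrays, so their directions are not independent.

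The genes whose levels followed Tgfbi most closely were looked for over the 9 arrays, among the 3570 genes with a range of at least 1 log2 unit. Sorl1, a sorting receptor, came first, with a Pearson correlation of 0.966, followed by Mylip, a ubiquitin ligase of lipoprotein receptors (0.947), the signalling protein Vav1 (0.936), Dap (0.921) and the adhesion adaptor Lpxn (0.904). Mylip had means of 10.42 in resting DKO cDC2, against 11.58 in resting WT, and 9.24 in activated DKO cDC2, against 10.62 in activated WT, and 12.09 in cDC1. Of the other genes of the set, Tgfbr2 was the most alike at 0.934, although its levels spanned only 0.45 log2 units and it was not among those 3570. Tgfbr1 followed at 0.764, with Smad3 at 0.549, Ski at 0.449, Pmepa1 at 0.242, Tgfb1 at 0.188, Skil at -0.211, Smad7 at -0.256 and Lrrc32 at -0.377. The points are 9 arrays in 5 groups that share genotype, activation and array, and the values carry no test. Smad5, the nearest gene downstream of Tgfbi and the only neighbour among 3 protein-coding genes on each side that passed the brightness rule, was at -0.02 ± 0.15 in DKO minus WT cDC2 both at rest and after activation (adjusted p = 1 each). Il9, Fbxl21, Lect2 and Trpc7 were under the rule, and Gm45623 had no cluster of its own.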

How the data were processed

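Per the submitters' processing notes, the authors processed the Affymetrix arrays with RMA in Affymetrix Expression Console (versions not stated), and the deposited values are linear intensities per transcript cluster. Labelling used the WT Pico kit on small RNA amounts, per the labels' protocols, and such amplification can add spread between arrays. The log2 of each value was taken with no further normalization. Symbols came from the platform annotation (21789 clusters with 1 symbol, 1621 with several, 5443 with none), and the brightest cluster stood for each of 999 genes with several. A gene was tested when its log2 intensity exceeded 5.94 (61.3 linear), the median over clusters with 1 symbol, in the mean of at least 1 group, which left 10728 genes.

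The two-sided moderated test of limma 3.58.1 (R 4.3.3, Benjamini-Hochberg over 10728 genes) fitted 9 arrays with 5 group means and 4 residual degrees of freedom, and every adjusted p is from that fit or, where said, from the 8 cDC2 arrays with replicate number as a block. The labels do not say what a replicate number shares. Deviations of same-numbered arrays from their group means correlated across genes at 0.45 to 0.69 in all 6 pairs of cDC2 groups, so the numbers were taken as pairs from the data. On simulated intensities for the activation mean, 86% of 100 genes changed by 1 log2 unit were recovered and 100% of 100 changed by 2, among 10726 genes. There were 5 false calls. The simulated arrays varied independently, without the shared deviation of same-numbered arrays, and a smaller share of genes was changed than passed in the data. The recovery in the data may therefore differ. Precision is limited by the number of arrays.

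The 10 genes and all lists were chosen with earlier results of these data known. Other pathway genes were named by a rule: up to 4 past the threshold with the largest change per list and comparison, or up to 2 with the smallest p, given as values. Tgif1 and Zeb2 were added to the genotype comparison because the block called them.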

Additional observations from a re-analysis of the deposited data

How the results depend on the processing

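With the block on replicate number, more genes passed. Genes past the threshold between genotypes became 79 at rest, 61 after activation and 599 in the mean of both states. Pathway genes with the 10 included became 3, 2 and 10. The genes of the set were chosen by this contrast, so their part in these counts is a description. Without them, 0, 0 and 7 of the 61 other pathway genes passed. For activation with the block, 3791 genes and 31 pathway genes passed in WT cDC2, 4080 genes, 31 pathway genes and 7 of the 10 in DKO cDC2, and 5656 genes, 43 pathway genes and 8 of the 10 in the mean. The counts over the 10 genes were added after the data had been seen. Small differences changed sign under other scalings: with quantile normalization, Tgfbr2 in WT activation (0.02), Ski in DKO activation (0.08) and the Tgfbr1 interaction (0.01), and with median centring, Ski in DKO activation (0.01), the Tgfbr1 interaction (0.00) and Tgfbr2 in cDC1 against cDC2 (-0.03). Skil's call in a single genotype was lost with quantile normalization (adjusted p = 0.0571 in WT and 0.0568 in DKO), with a trended robust prior (0.0526 and 0.0556) and, in DKO, with no brightness filter (0.0526). The cause was not tested.

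Leaving out 1 array at a time, genotype counts ran from 0 to 6 genes (0 to 1 pathway genes) at rest, stayed at 0 after activation by limma (421 to 732 genes at an unadjusted p below 0.05), and ran from 2 to 4 genes (1 to 2 pathway genes) in the mean. Activation counts ran from 63 to 550 genes (0 to 4 pathway genes, 0 to 2 of the 10) in WT, from 217 to 617 (3 to 4, and 1 to 2) in DKO, and from 2128 to 2812 (14 to 20) in the mean. The cDC1 comparison ran from 798 to 828 genes, with 1 of the 10. Signs turned for activation of Tgfb1 in WT (-0.87 to 0.11), Lrrc32 in WT (-0.27 to 1.27) and DKO (-0.46 to 1.51), Ski in WT (-0.04 to 0.11), DKO (-0.08 to 0.06) and the mean (-0.02 to 0.05), for the Tgfbr1 interaction (-0.28 to 0.26), and in cDC1 for Tgfbr2 (-0.02 to 0.03), Smad7 (-0.00 to 0.43) and Lrrc32 (-1.20 to 0.04). With 2 arrays a group, a fit that lacks 1 has fewer degrees of freedom. The pathway counts between genotypes in these fits include the 10 genes, which were chosen by that contrast, so they are a description. Of 564 single-gene values under alternatives that kept all arrays of the fit, 544 were counted as unchanged. The genotype differences of the 10 genes are among the 564. For them the side of the threshold was not counted, so the 544 say nothing of it.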

Other observations

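Beside Lrrc32 and Tgfb1, other genes separated the replicate numbers in all 4 cDC2 groups. The largest mean gaps, replicate 1 minus replicate 2, in genes chosen after their values were seen and with small nucleolar RNAs passed over, were in Tnfsf4 (OX40 ligand, 1.97 and 1.79 in activated and resting DKO cDC2, 1.81 and 1.86 in activated and resting WT cDC2), Stap1 (mean 1.75) and the chemokine Ccl3 (mean 1.71), all higher on replicate 1. Oas3 (mean -1.84) and Ifi27l2a (mean -1.70), both interferon-stimulated genes, and the heat shock gene Hsph1 (mean -1.83) were higher on replicate 2. The labels do not say what the replicate numbers stand for.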
